A study of Saccharomyces cerevisiae with 5 samples.

Results

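Phosphate uptake and phosphate release in budding yeast were followed through 8 genes, *PHO84* (YML123C), *PHO89* (YBR296C), *PHO5* (YBR093C), *PHO3* (YBR092C), *PHO8* (YDR481C), *VTC3* (YPL019C), *PHM6* (YDR281C) and *SPL2* (YHR136C), each identified by its systematic name among the 6697 coding sequences (CDS) of the RNAseq table. All 8 were found. The RNAseq consists of 1 poly(A)+ library from the haploid wild-type strain BY4741, of mating type MATa and with the auxotrophic markers *ura3*Δ0 and *met15*Δ0 as well as *leu2*Δ0 and *his3*Δ1, in mid-log growth in YPD, and 1 from the same strain in YPD given 1 mM CuSO4 for 4 hours. Phosphorylated histone H2A (γH2A), which the study uses as a mark of stalled replication forks, was profiled in YPD by 1 ChIPseq library, beside 1 input library. A γH2A library of CuSO4-treated cells is not analysed here. Neither RNA library comes from cells starved of phosphate.

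Yeast cells sense phosphate through the PHO pathway. When phosphate is plentiful, the cyclin-dependent kinase Pho85 with its cyclin Pho80 phosphorylates the transcription factor Pho4 and keeps it out of the nucleus. When phosphate is scarce, the inhibitor Pho81 blocks the kinase, and Pho4 acts with Pho2 on genes for high-affinity uptake, secreted phosphatases and polyphosphate turnover. Pho4 binds the core CACGTG, and more weakly CACGTT. *PHO3* is listed with these genes because it encodes an acid phosphatase beside *PHO5*, but it is known as the constitutive form, repressed by thiamine and not by phosphate. For this reason the set is called here the 8 phosphate genes and not a starvation regulon.

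The deposited values are log2 reads per kb of CDS, and the reads behind them could be worked back as whole numbers, with totals of 5572698 reads on CDS in YPD and 5749810 with CuSO4. *CUP1-1*, a copy of the copper metallothionein gene used here as a check of the treatment, went from 496 to 4042 reads, a log2 change of 2.98. With 1 library per condition no change has a replicate check. Intervals are 95% exact intervals from the reads and cover counting error only. A level is an average over a culture, in which fewer cells that express a gene and less RNA per cell cannot be told apart.

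The promoters of these genes are shown first, because the Pho4 core is the feature that the pathway acts through. In the 500 bp before the start codon, 7 of the 8 genes hold at least 1 CACGTG or CACGTT on either strand. Of all CDS with a full window of that length, 20.6% do, and 2.63% hold at least 2, as 6 of the 8 genes do. Since most of the 8 are textbook Pho4 targets, this count describes the set. *SPL2* has 4 cores, all CACGTG. *PHO84* and *VTC3* have 3 each, *PHO5*, *PHO89* and *PHM6* have 2 each and *PHO8* has 1. *PHO3* has 0 in 500 bp and 0 in 1000 bp. CACGTG alone is found in 500 bp for 6 of the 8 genes and for 5.99% of all CDS. Stretches of the R64 reference are printed below for both acid phosphatase genes, for the high-affinity transporters *PHO84* and *PHO89*, and for *SPL2*, which has most cores. They read 5′ to 3′ toward the gene, and capitals mark a core (AACGTG is CACGTT on the other strand).
*PHO5* (chrII:431052-431351, minus strand, 400 to 101 bp before the start codon): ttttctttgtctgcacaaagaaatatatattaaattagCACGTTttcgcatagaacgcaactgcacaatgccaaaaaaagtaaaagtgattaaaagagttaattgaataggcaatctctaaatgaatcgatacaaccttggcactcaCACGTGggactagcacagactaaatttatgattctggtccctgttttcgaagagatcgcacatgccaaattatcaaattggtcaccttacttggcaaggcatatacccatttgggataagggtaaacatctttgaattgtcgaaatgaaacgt
*PHO3* (chrII:429202-429401, minus strand, 300 to 101 bp before the start codon): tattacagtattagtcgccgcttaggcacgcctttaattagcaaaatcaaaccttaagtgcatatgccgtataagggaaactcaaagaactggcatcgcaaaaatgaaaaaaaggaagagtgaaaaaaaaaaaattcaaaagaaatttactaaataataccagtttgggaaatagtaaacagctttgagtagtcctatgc
*PHO84* (chrXIII:26001-26300, minus strand, 500 to 201 bp before the start codon): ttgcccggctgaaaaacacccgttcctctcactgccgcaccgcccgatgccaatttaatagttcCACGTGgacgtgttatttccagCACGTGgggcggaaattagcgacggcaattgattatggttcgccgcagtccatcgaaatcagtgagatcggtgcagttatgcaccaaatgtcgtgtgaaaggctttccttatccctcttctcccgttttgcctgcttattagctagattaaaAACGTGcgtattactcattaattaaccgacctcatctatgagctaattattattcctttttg
*PHO89* (chrII:798723-799022, minus strand, 500 to 201 bp before the start codon): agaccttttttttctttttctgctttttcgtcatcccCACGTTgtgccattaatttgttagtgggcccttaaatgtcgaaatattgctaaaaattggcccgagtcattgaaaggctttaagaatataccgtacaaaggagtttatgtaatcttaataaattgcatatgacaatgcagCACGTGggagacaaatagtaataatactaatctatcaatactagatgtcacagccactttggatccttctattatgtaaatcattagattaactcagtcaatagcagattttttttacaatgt
*SPL2* (chrVIII:375201-375500, minus strand, 400 to 101 bp before the start codon): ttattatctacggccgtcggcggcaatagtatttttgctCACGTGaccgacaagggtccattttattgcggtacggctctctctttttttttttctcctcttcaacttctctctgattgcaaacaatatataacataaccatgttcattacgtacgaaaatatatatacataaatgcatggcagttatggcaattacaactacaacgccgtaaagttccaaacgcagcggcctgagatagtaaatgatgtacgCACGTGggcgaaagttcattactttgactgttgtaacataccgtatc

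In the stretch from *PHO5* the cores begin 362 bp (CACGTT) and 253 bp (CACGTG) before the start codon. The stretch from *PHO3*, which is 200 bp long, has none. *SPL2* has further CACGTG cores at 90 and 31 bp, outside the stretch shown. In *PHO84* the cores at 436, 414 and 262 bp all lie inside YML122C, a small CDS annotated between 618 and 237 bp upstream on the same strand. The cores within 1000 bp of the remaining genes are given with 12 bases on each side, to show the flanks that accompany each core.
*VTC3* at 345 bp (chrXVI:517346-517375, minus strand): tgtgcgagggccCACGTGgcttaatacaac
*VTC3* at 311 bp (chrXVI:517312-517341, minus strand): tgcagtcgcaagCACGTGcatgcgattttg
*VTC3* at 278 bp (chrXVI:517279-517308, minus strand): gcacaaggcagaAACGTGgaaacatacaca
*PHM6* at 563 bp (chrIV:1022867-1022896, minus strand): cttcattattagAACGTGcaaatgtgcatt
*PHM6* at 434 bp (chrIV:1022738-1022767, minus strand): gaaaaccctgatAACGTGgtgtcattttta
*PHM6* at 279 bp (chrIV:1022583-1022612, minus strand): gagcttcgctgaCACGTGggaggtgggata
*PHO8* at 380 bp (chrIV:1420613-1420642, minus strand): ctcatatggagaAACGTGagattgaagtac
*PHO8* at 534 bp (chrIV:1420767-1420796, minus strand): tctacgtcgggcCACGTGcagcgatcactt

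The cores of *VTC3* lie in the 632 bp that separate it from the divergently transcribed *CTF19*. The CACGTG of *PHO8* lies 534 bp upstream, beyond the 500-bp window, and both of its cores fall inside the neighbouring CDS *CWC21*.

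**Figure D1:**
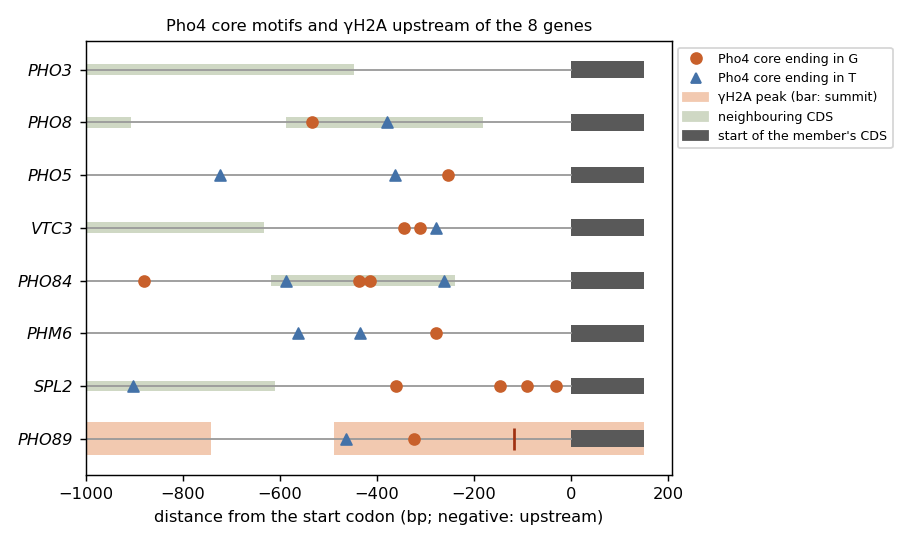
Positions of Pho4 cores (circles, CACGTG; triangles, CACGTT) in the 1000 bp upstream of each of the 8 genes, ordered by mRNA level in YPD, with neighbouring CDS in green and γH2A peaks shaded (vertical bar, summit). *PHO3* at the top has no core, and *PHO89* at the bottom is the only one with γH2A peaks in this window, with a summit 118 bp upstream.

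In YPD the 8 genes spanned a wide range of levels. *PHO3* was highest, at 10.30 on the log2 scale of reads per kb, and *PHO89* lowest, at 2.07. The order from high to low was *PHO3*, *PHO8*, *PHO5*, *VTC3*, *PHO84*, *PHM6*, *SPL2* and *PHO89*, and it was the same with CuSO4. The counting intervals of *PHO5* and *VTC3* overlapped in both libraries, as did those of *PHM6* and *SPL2* and those of *SPL2* and *PHO89*. Overlap of separate intervals does not show that levels are equal, and these neighbours in the order were not compared directly. The median level of all CDS was 7.82 in YPD and 7.84 with CuSO4. Only *PHO3* and *PHO8* of the 8 lay above it in each library.

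**Figure D2:**
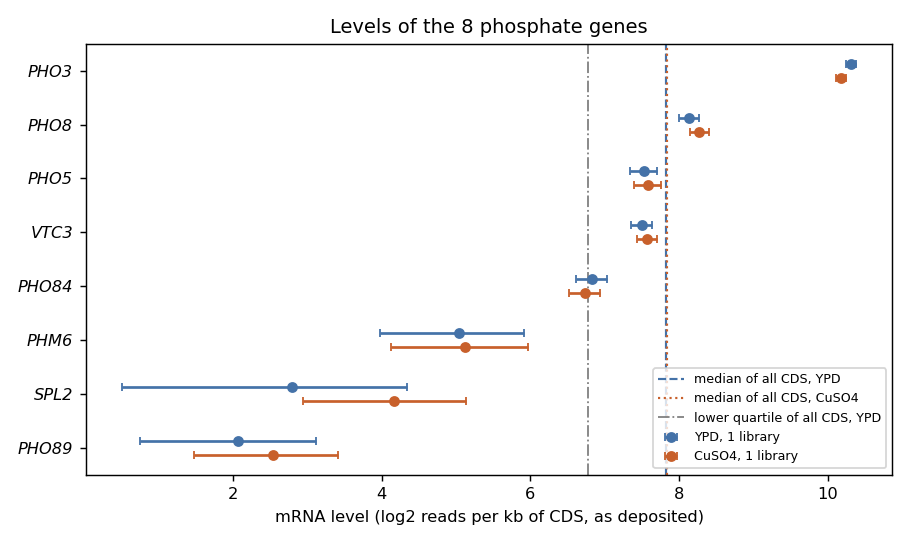
mRNA levels of the 8 phosphate genes (log2 reads per kb of CDS) in the YPD library (blue) and the CuSO4 library (orange), with 95% exact Poisson intervals, the median of all CDS (vertical lines) and the lower quartile in YPD (6.77). *PHO3* and *PHO8* lie to the right of the medians, and the paired intervals of each gene overlap, with *PHO3* the closest to separation.

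Among the transporters, *PHO84* encodes the high-affinity proton-coupled phosphate transporter of the plasma membrane. It had 193 reads in YPD and 187 with CuSO4, or log2 levels of 6.82 and 6.73, and so lay close to the lower quartile of all CDS. Its log2 change was -0.095 (interval -0.39 to 0.20). In linear terms the interval runs from 0.761 to 1.15 times the YPD level, so that a 2-fold difference lies outside counting error in either direction. An antisense RNA is known at *PHO84*, and whether reads were counted by strand is not given in the sources used here, so sense and antisense reads at this gene cannot be told apart.

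*PHO89* encodes the sodium-coupled high-affinity transporter, which works at alkaline pH. It had 7 and 10 reads, log2 levels of 2.07 and 2.54, and in YPD it stood above 2.36% of all CDS. The log2 change of 0.46 has an interval of -1.08 to 2.09, or 0.474 to 4.27 times the YPD level, and no change was detectable at this depth. Per kb, *PHO84* was 27.0 times as high as *PHO89* in YPD and 18.3 times with CuSO4. The transporters of low affinity stood above both. *PHO90* and *PHO87*, which serve uptake when phosphate is plentiful, were at 2.28 and 1.94 times the *PHO84* level in YPD, and *PHO91*, whose product exports phosphate from the vacuole, was at 2.86 times. For *PHO90*, 659 reads were counted in YPD and 574 with CuSO4, and its log2 value was lower with CuSO4 by a change of -0.25 (-0.41 to -0.085). For *PHO87* there were 589 and 511 reads, and the change was also -0.25 (-0.43 to -0.081). Among CDS with 20 or more reads in the library with more, 19.6% changed at least as much as *PHO90* and 19.0% as *PHO87*. For *PHO91*, with 841 and 842 reads, the change was -0.048 (-0.19 to 0.092).

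*PHO5* encodes the secreted repressible acid phosphatase, whose promoter is a classical model of chromatin remodelling by Pho4. It had 249 reads in YPD and 268 with CuSO4, log2 levels of 7.52 and 7.58, a change of 0.056 (interval -0.20 to 0.31). *PHO3*, which lies 446 bp downstream of *PHO5* on chromosome II on the same strand, had 1714 and 1619 reads, log2 levels of 10.30 and 10.17. *PHO3* stood above 89.5% of all CDS in YPD and above 88.2% with CuSO4, at 6.88 and 6.04 times the level of *PHO5* per kb. The CDS are of equal length, 1404 bp, and 86.7% identical. Of the 50-base stretches of *PHO5*, 12.3% also occur elsewhere in the genome, as do 8.71% of those of *PHO3*, so the placement of some of their reads is uncertain. The sum over both genes, 1963 and 1887 reads, gave a change of -0.11 (-0.20 to -0.015).

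*PHO3* was the only one of the 8 genes whose counting interval left out 0. Its log2 change was -0.13 (-0.23 to -0.033), or 0.913 times the YPD level. Changes at least that large were seen in 44.1% of the CDS with 20 or more reads in the library with more reads. Because thiamine represses *PHO3*, 16 genes of thiamine metabolism, uptake and regulation, or regulated by thiamine, were set beside it. Over the 15 with at least 10 reads in all, the median change was -0.10, and 5 were above and 10 below 0, beside 3364 above and 2999 below over all CDS. The interval left out 0 for 1 of the 12 with at least 20 reads, beside 21.7% of all CDS with as many. *THI4*, which makes the thiazole ring of thiamine, had 24 and 14 reads (-0.83, interval -1.89 to 0.18), and *THI2*, an activator of thiamine genes, had 30 and 16 reads (-0.96, interval -1.93 to -0.035). These were the lowest changes among the 15. *THI6* and *THI7*, which had the most reads in the thiamine list, changed by -0.10 (-0.33 to 0.13) and -0.018 (-0.25 to 0.21). *THI12*, a gene of the pyrimidine branch of thiamine synthesis, had 6 and 15 reads (1.27, interval -0.18 to 2.93), and the sum over it and its near-identical copies *THI5*, *THI11* and *THI13* was 30 and 41 reads (0.40, interval -0.31 to 1.13). The CDS nearest to *PHO3* in both log2 levels, over these 2 libraries, were *YNR021W* (distance 0.028), *RRB1* (0.028) and *GLN4* (0.031).

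*PHO8* encodes the alkaline phosphatase of the vacuole. With 462 and 525 reads, it had log2 levels of 8.14 and 8.27, and a change of 0.13 (interval -0.048 to 0.32). In YPD it stood at 1.53 times the *PHO5* level per kb.

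*VTC3* encodes a subunit of the vacuolar transporter chaperone complex, which makes polyphosphate, the cell's phosphate store. It had 437 and 476 reads, log2 levels of 7.49 and 7.57, and a change of 0.074 (-0.12 to 0.26). Per kb in YPD, the level of *VTC1* was 8.79 times that of *VTC3*, and that of *VTC2* 2.74 times. *VTC4*, the catalytic subunit, had a log2 level of 8.63 beside the 7.49 of *VTC3*. *VTC3* was thus the lowest of these subunits, and it stayed so with CuSO4. *VTC5*, a further subunit, had log2 levels of 7.83 in YPD and 7.60 with CuSO4. With CuSO4 its counting interval overlapped that of *VTC3*. Summed over *VTC1* to *VTC4*, 3053 reads were counted in YPD and 3105 with CuSO4, a change of -0.025 (-0.098 to 0.047).

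*PHM6* encodes a small protein of unknown function, and *SPL2* a small protein that lowers low-affinity uptake through Pho87. Both were near the limit of detection. *PHM6* had 10 reads in YPD and 11 with CuSO4, log2 levels of 5.04 and 5.13, with a difference of 0.088 (-1.29 to 1.48). *SPL2* had 3 and 8 reads, log2 levels of 2.80 and 4.16. Its ratio of 2.58 is the highest of the 8 genes, but it rests on 11 reads and its interval, 0.618 to 15.1, includes 1. No change of either gene was detectable at this depth. Their promoters hold 2 and 4 Pho4 cores (all of those of *PHM6* and part of those of *SPL2* are printed above).

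A change was counted as 2-fold where the library with more reads had at least 20, a minimum that 6078 CDS pass. Of the 8 genes, 5 pass it, and *PHO89*, *PHM6* and *SPL2* do not. None of the 5 changed 2-fold (0 of 5), where 1.18% of all CDS that pass did. The counting interval left out 0 for 1 of the 5, *PHO3*, against 21.7% of all CDS, and for 0 in the higher direction (11.6% of all CDS) and 1 in the lower (10.1%). A share of 1 in 5 is close to that over all CDS. The median change of the 8 was 0.081, beside 0.013 over the 6363 CDS with at least 10 reads in all, whose 5th and 95th percentiles were -0.34 and 0.45. Summed over the 8 genes, 3075 reads were counted in YPD and 3104 with CuSO4, a change of -0.036 (-0.11 to 0.036). *PHO3* alone held 1714 and 1619 of these reads.

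**Figure D3:**
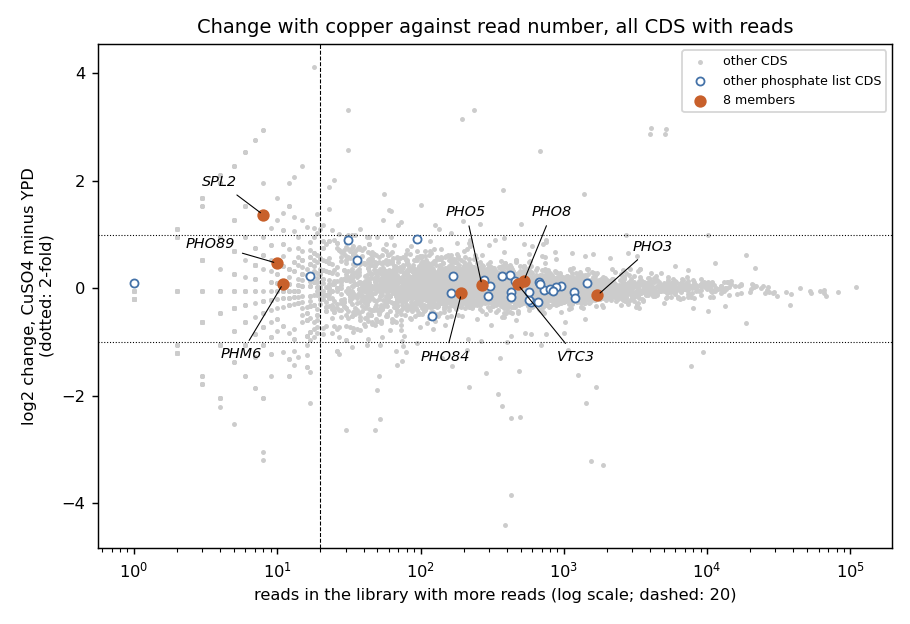
Log2 change with CuSO4 against the reads in the library with more reads (log axis) for all CDS with reads, with the 8 phosphate genes in orange and the other CDS of the phosphate list as open circles. *SPL2*, with 8 reads, is the only one of the 8 beyond 2-fold (dotted lines), and it lies left of the minimum of 20 reads (dashed line).

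The wider pathway was described through 38 CDS, which include the 8. Of these, 33 pass the minimum of 20 reads and 0 changed 2-fold, beside 1.18% of all CDS that pass. The interval left out 0 for 3 of the 33 in the higher direction (*PHO11*, *DDP1* and *CBF1*), beside 11.6% of all CDS that pass. It left out 0 for 6 in the lower (*PHO3*, *PHO12*, *PHO87*, *PHO90*, *VTC2* and *VTC5*), beside 10.1%. In either direction the share over all CDS was 21.7%. *PHO11* and *PHO12*, counted here in opposite directions, are near-identical copies, and the interval of their summed reads holds 0. The median change was 0.044 over the 37 CDS with at least 10 reads in all. By role, it was -0.069 for 8 transporters and associated proteins, 0.13 for 9 phosphatases and phosphodiesterases, 0.072 for 9 proteins of polyphosphate turnover and -0.017 for 9 regulators.

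Pho4, its partner and the kinase inhibitor were each covered by at least 275 reads in both libraries. For *PHO4*, 429 and 421 reads gave a change of -0.077 (-0.27 to 0.12). *PHO2*, its partner, had 287 and 305 reads (0.038, interval -0.20 to 0.28). *PHO81*, which is both the inhibitor of the kinase and itself a Pho4 target, had 294 and 275 reads (-0.15, interval -0.39 to 0.096). The highest change among regulators with at least 20 reads was 0.26 (0.045 to 0.47) for *CBF1*, a factor that shares the CACGTG core with Pho4 and acts on methionine genes and centromeres. In the polyphosphate group *DDP1*, a phosphatase of polyphosphate and inositol pyrophosphates, was highest, at 0.23 (0.0068 to 0.45), and *VTC5*, a subunit of the polymerase, lowest, at -0.22 (-0.40 to -0.046).

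The values of the acid phosphatases *PHO11* and *PHO12* differed in opposite directions, from 48 to 94 reads (0.92, interval 0.40 to 1.45) and from 121 to 88 (-0.51, interval -0.92 to -0.10). They are near-identical copies, with 88.3% and 87.2% of their 50-base stretches found elsewhere in the genome, so how reads were divided between the copies is uncertain. Their sum was 169 reads in YPD and 182 with CuSO4, a change of 0.057 (-0.25 to 0.37). *PHM7*, a Pho4-regulated membrane protein, went from 16 to 31 reads (0.90, interval -0.010 to 1.87), and *GIT1*, which takes up glycerophosphoinositol, from 24 to 36 (0.54, interval -0.25 to 1.34).

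**Figure D4:**
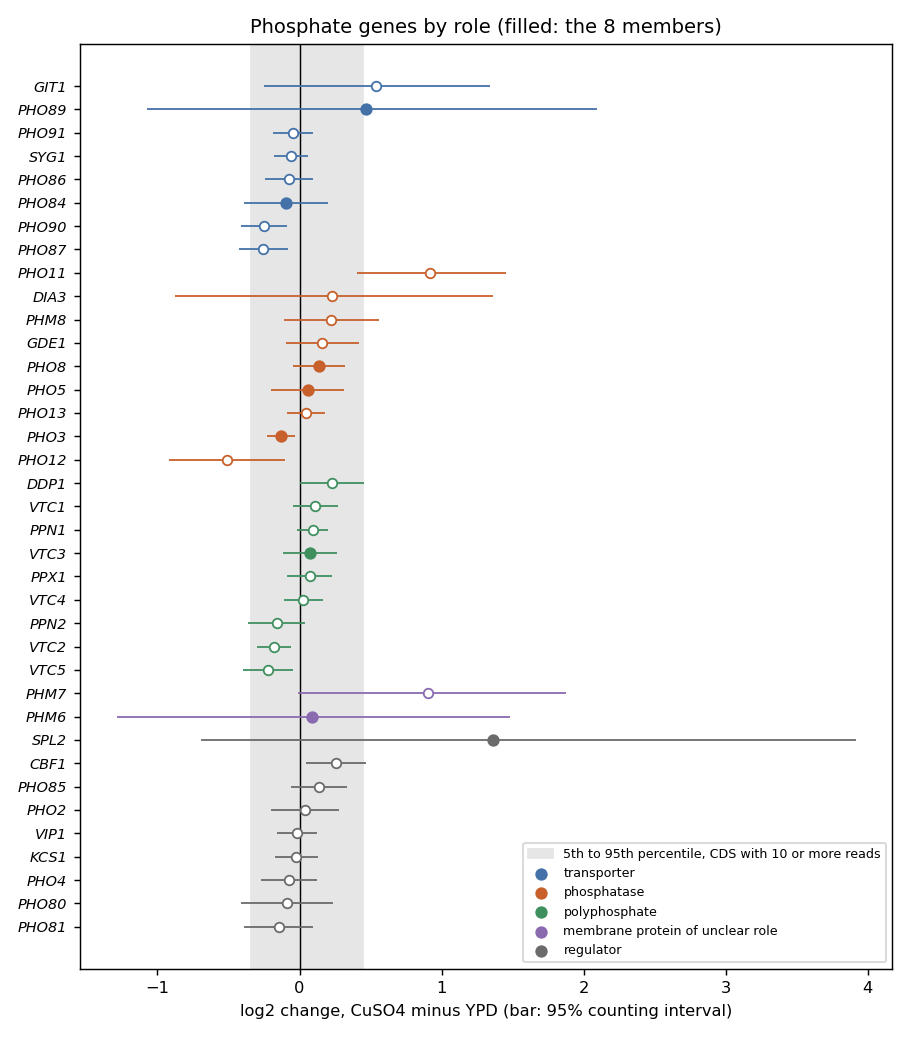
Log2 change with CuSO4 for the phosphate list by role, with 95% counting intervals (filled, the 8 genes; open, the rest; *PHO92*, with 0 reads in YPD, is left out). The grey band runs from the 5th to the 95th percentile of CDS with at least 10 reads, -0.34 to 0.45, and *PHO11*, *PHM7* and *SPL2* have the points farthest to its right.

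None of the 8 genes overlaps another CDS, and 6 CDS start within 1000 bp of the start of one of them. YML122C, the small CDS upstream of *PHO84* that holds 4 of its 5 cores within 1000 bp, had 38 reads in YPD and 23 with CuSO4 (-0.77, interval -1.59 to 0.010). *CWC21*, a splicing factor gene 180 bp upstream of *PHO8*, went from 102 to 139 reads (0.40, interval 0.018 to 0.78). *CTF19*, a kinetochore gene that diverges from *VTC3*, had 74 and 92 reads (0.26, interval -0.19 to 0.73). *ARO9*, an aromatic aminotransferase gene that diverges from *SPL2*, had 280 and 317 reads (0.13, interval -0.11 to 0.37), far above the 3 and 8 of *SPL2*. *YCK1*, a casein kinase gene downstream of *SPL2*, had 1242 and 1153 reads (-0.16, interval -0.27 to -0.040). *KRE2*, a mannosyltransferase gene beyond *CWC21*, had 1558 and 1661 (0.043, interval -0.058 to 0.14). The interval thus left out 0 for *CWC21*, which was higher, and for *YCK1*, which was lower.

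The γH2A peaks in YPD were compared with the same promoters. The list of peaks holds only those of at least 2-fold enrichment, so weaker signal is not seen here. A γH2A peak reached the 1000 bp before the start codon for 1 of the 8 genes, *PHO89*, and for 6.64% of all CDS. The peak spans chrII:796796-799011, covers 100% of the *PHO89* CDS and runs 489 bp beyond its start codon, with a summit 118 bp upstream at 3.49-fold enrichment, which ranks 46 of 240 peaks. Both Pho4 cores of *PHO89* lie inside it. A further peak of 3.03-fold begins 742 bp upstream. *PHO89* lies 14.7 kb from the right end of chromosome II and has the lowest mRNA level of the 8. For the other genes, the nearest peak was between 4.22 kb (*PHM6*) and 26.9 kb (*PHO8*) from the start codon, and *PHO84*, 24.0 kb from the end of chromosome XIII, was 16.8 kb from the nearest. The peaks come from 1 list of untreated cells, so no change of γH2A with CuSO4 is given.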

How the data were processed

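Poly(A)+ RNAseq of BY4741 cells in YPD and in YPD with CuSO4 (1 library each) and γH2A ChIPseq peaks of YPD cells were analysed. The authors mapped RNA reads with HISAT2 2.0.5, counted them on each CDS in SeqMonk and deposited log2 values divided by CDS length. The values show that they were also scaled to the larger library, and that no common median was set. Peaks were called by the authors with MACS2 after Bowtie2 2.2.5. Artifactual peaks were removed, and only peaks of at least 2-fold enrichment were kept. The deposited pileup is a signal, the deposited enrichment a fold over the control, and the deposited significance a -log10 p-value. Pileup and -log10 p were not used for any result. The labels attach the peak list to the CuSO4 ChIP and the input too. It was read as a list of the untreated ChIP, which the study describes.

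Reads were recovered by taking CDS without reads as 0.9 reads. Within 0.05 reads, 99.94% of the values in YPD and 99.98% with CuSO4 were whole. A count of 0 allows up to 3 reads. Changes are differences of deposited log2 values, with 95% Clopper-Pearson intervals, and levels have exact Poisson intervals. No test across genes was run. The steps were tested on simulated data. Cores were matched exactly on both strands of the RefSeq R64 genome, whose CDS positions equal those of the files for 99.9% of the 6014 CDS listed in both. Repeats were found with BLAST 2.17.0 (near-identical, at least 95% identity over 50% of the length). Python 3.11.15, pandas 2.3.3 and scipy 1.17.1 were used.

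The 8 genes, the lists and the alternatives were chosen with earlier results of these data known. Named by rule were the 8 genes, list CDS past 2-fold or with the highest or lowest change in a role, CDS whose start lay within 1000 bp of a member's, and the 3 CDS nearest to the member with most reads. Other CDS, among them *PHO87*, *PHO91*, *VTC1*, *VTC2*, *VTC4*, *PHO4*, *PHO2*, *THI4*, *THI2*, *THI6* and *THI7*, were named after their values were seen. Alternatives were other scalings, added reads, other minimum reads, folds, intervals and windows, peak thresholds, and lists without *PHO3* or near-identical copies.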

Additional observations from a re-analysis of the deposited data

How the results depend on the processing

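No paired analysis was possible because the conditions have 1 library apiece. For the changes of the 8 single genes, 32 of 32 alternatives (median centring, leaving *CUP1* out of the totals, adding 5 reads, ignoring CDS length) gave a value inside the counting interval. This count could hardly come out otherwise. Centring, leaving out *CUP1* and ignoring length shift every gene by the same amount, at most 0.0086, and adding reads pulls changes toward 0. The median of the 8 genes lay between 0.063 and 0.089 under its alternatives, and 2 of these, which leave out overlapping or near-identical genes, could not move it because the 8 include none. Without a minimum of reads, 1 of the 8 genes passed 2-fold, *SPL2*, whose change was 0.65 with 5 reads added. With a window of 250 bp, 1 of the 8 genes held a Pho4 core, *SPL2*, beside 10.2% of all CDS. *PHO3* has no core, and those of the other genes begin farther upstream, the nearest at 253 bp in *PHO5*. The median of the phosphate list, 0.044, was -0.017 over CDS with at least 50 reads in the library with more. Summing both near-identical copies, chosen after the data were seen, moved *PHO11* and reversed *PHO12*, to 0.057. Depth limits *PHO89*, *PHM6* and *SPL2*, which have 10, 11 and 8 reads in the library with more, and a 2-fold higher level lies inside each of their intervals.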

Other observations

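In the phosphate list, 6 of 38 CDS had a γH2A peak that reached the 1000 bp upstream, *PHO89* among them, beside 6.64% of all CDS. The others were *GIT1* (5.63-fold), *PHO12* (4.12-fold), *PHO11* (3.97-fold), *PHO92* (3.17-fold) and *PHM7* (2.04-fold). Unlike that of *PHO89*, the peaks of these others have their summits outside the 1000 bp, so their folds are not enrichment at the promoter. *PHO92*, whose product binds methylated mRNA in meiosis, had 0 reads in YPD, which allows up to 3, and 1 with CuSO4. *GIT1*, *PHO11* and *PHO12* lie 18.0, 3.36 and 9.14 kb from a chromosome end, as *PHO89* does at 14.7 kb, while *PHM7* and *PHO92* lie 162 and 308 kb from one. In the thiamine list of 16, the CDS with such a peak were *THI5*, *THI11*, *THI12* and *THI13*, near-identical copies that lie 12.9 to 16.2 kb from a chromosome end. The summits of their peaks also lie outside the 1000 bp. Of their 50-base stretches, 60.0% to 85.0% occur elsewhere in the genome, so the placement of ChIP reads on these copies is uncertain. *PHO11* and *PHO12* are near-identical copies as well, at 88.3% and 87.2%. Their peaks end upstream of the CDS, in sequence not searched for repeats, so the placement of those ChIP reads was not checked.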
